A study of Mus musculus with 16 samples.

Results

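The comparison described here is that of fetal heart ventricles labelled as Meis1 and Meis2 double knockout (dKO) with control ventricles, in 8 of the 16 RNA libraries of the series. The 8 libraries are 4 dKO and 4 control ventricle libraries, chosen by the chamber and genotype in their labels, and each comes from a different mouse embryo at E15.5, a late fetal stage. The other 8 libraries are the atria of the same embryos and enter only where the ventricular difference is set against the atrial one. The dKO embryos were homozygous for floxed alleles of both genes (Meis1flox/flox; Meis2flox/flox) and carried 1 copy of a Cre transgene under the α-MHC promoter (aMHC tg/wt), which is active in heart muscle cells. The controls were homozygous for the same floxed alleles without the transgene (aMHC +/+), so all 8 embryos share the floxed alleles, and the presence of Cre and the deletion cannot be told apart. Non-muscle cells of the ventricle keep both genes under such a driver. The embryos came from 4 litters, with 1 control and 1 dKO embryo taken from each per the labels' protocols, but the litter of each embryo is not given. The series text mentions constitutive and inducible deletion, and the labels do not say which applies to these embryos. Whole ventricles were frozen after removal of the outflow tract, so lower RNA of a cell type and fewer cells of that type cannot be told apart in any result below.

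Meis1 and Meis2 are transcription factors of the TALE homeobox class. They bind DNA alone or with Pbx partners, usually at sites holding the letters TGACAG or a composite of it with a Pbx or Hox site, and they act in heart, limb, eye and blood development. Atrial and ventricular muscle cells of the fetal heart differ in contractile proteins, ion channels, gap junction proteins and peptide hormones, and transcription factors of the Irx, Tbx, Hey and Nr2f families help to set these programmes. In the fetal ventricle some genes of the atrial type, among them Nppa and Gja5, are also active in the inner trabecular layer and in the forming conduction system.

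The dKO ventricle libraries were shallower than the control ones. They held 12.3 ± 2.998 M reads (megareads) (SD, n = 4, range 7.88 to 14.3) against 18.4 ± 3.18 M (range 15.6 to 23.0), without overlap (two-sided exact permutation p = 0.0286, the smallest that 70 arrangements of 4 against 4 can give). The sample titles open with 1 of 3 numbers whose meaning the labels do not state, and the libraries are grouped by it here as title groups A to C. They do not hold 1 control and 1 dKO embryo each, so the title number was not read as the litter. Title group A has 1 dKO library (dKO 1), B has 2 of each genotype (dKO 2 and 3, control 1 and 2) and C has 1 dKO and 2 control libraries (dKO 4, control 3 and 4). The first principal component of the 8 libraries, with 22.1% of the variance, separated title group B from the others, and the second, with 19.6%, separated dKO from control. Myh6, the α-myosin heavy chain gene whose promoter drives the Cre, followed the title group and was picked out for that after its values were seen. It measured 1763 and 1869 CPM (reads scaled to library size) in the dKO and 1741 and 1615 CPM in the control libraries of group B, against 3322 to 4432 CPM in the other 4. The Y-linked gene Ddx3y was present in all 8 libraries at 42.1 to 53.3 CPM, with overlap between genotypes.

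**Figure D1:**
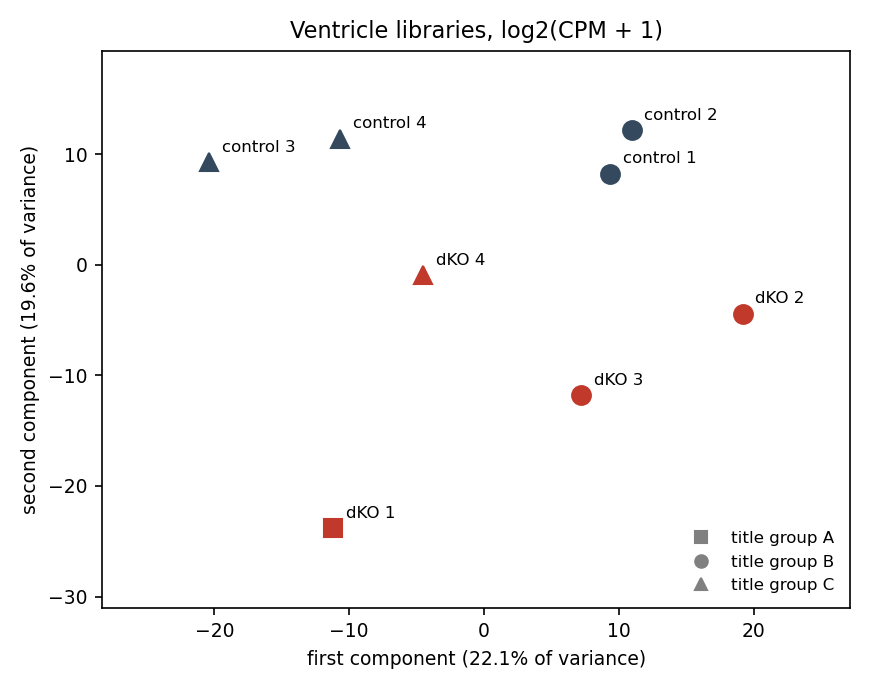
The 8 ventricle libraries on the first (horizontal) and second (vertical) principal component of log2(CPM + 1), with dKO libraries in red, control libraries in dark blue and the title group as the symbol. Title group B lies to the right, and the 4 control libraries lie above the 4 dKO libraries.

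Of the targeted genes, Meis2 was lower in dKO ventricles and Meis1 was not. Meis2 (ENSMUSG00000027210, chromosome 2, 115863064 to 116065839 on GRCm38, minus strand) measured 26.9, 20.5, 21.7 and 24.3 CPM in dKO libraries 1 to 4 and 40.0, 35.4, 37.9 and 43.6 CPM in control libraries 1 to 4. Every dKO value lay below every control value. The dKO mean was 59.6% of the control mean, a difference of -0.73 on the log2(CPM + 1) scale (exact permutation p = 0.0286). Meis1 (ENSMUSG00000020160, chromosome 11, 18879817 to 19018985, minus strand) measured 43.4, 41.9, 40.4 and 37.8 CPM in dKO and 45.6, 41.5, 36.2 and 42.8 CPM in control libraries. The groups overlapped, with a dKO mean at 98.5% of the control mean (log2 -0.02, exact permutation p = 0.829). Reads were summed per gene, with no count of the floxed exons by themselves. A transcript lacking an exon would still be counted, so Meis1 does not check the labels.

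Across the genome a small set of genes was called in ventricles. The test covered the 13950 genes whose CPM averaged 1 or more across the 16 libraries. Of these, 279 were called at a limma adjusted p under 0.05, which is 2.0% of those tested. An unadjusted limma p under 0.05 was found for 1780 genes, so the calls do not measure how many genes changed. The counts below are of the 279. Among the 279 called genes, 138 (0.989% of those tested) rose in dKO ventricles and 141 (1.01%) fell. The called rises had a median log2 difference of 0.51 (0.23 to 2.23) and the called falls one of -0.45 (-1.51 to -0.18), against a median of -0.02 over all genes tested. A fold of 2 or more on the log2(CPM + 1) scale was reached by 25 called genes, 19 higher and 6 lower. The groups did not overlap for 137 of the 138 rises and 140 of the 141 falls. Non-overlapping groups were found for 1132 of all 13950 genes, or 8.11%. Leaving out 1 library at a time left 187 to 261 called genes. The rises dropped to 90 without dKO 1 or without dKO 3, and the falls to 88 without control 3 and 93 without control 4. In a fit of all 16 libraries with embryo as a block 218 of the 279 calls were kept, and among the genes named below it lost Irx4, Lrrc10, Clic4, Mpped2, Mylk3, Cacna1c, Cacna1h, Csrp2, Ednrb, Wif1, Tgfbr3, Peg10, Plagl1 and Cenpa. With the title group as a covariate 201 of the 279 calls were kept. Among the named genes Adra1d, Oprd1, Ramp3, Clic4, Mpped2, Ryr3, Adam11 and Cenpa were lost (limma adjusted p of 0.0559 to 0.129). Within title group B alone, with 2 libraries a group, 79 genes were called. All 279 kept their direction there, which groups without overlap fix in advance for any subset of the libraries. Title group A holds only a dKO library and C a single dKO library, so neither gives a spread of its own.

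**Figure D2:**
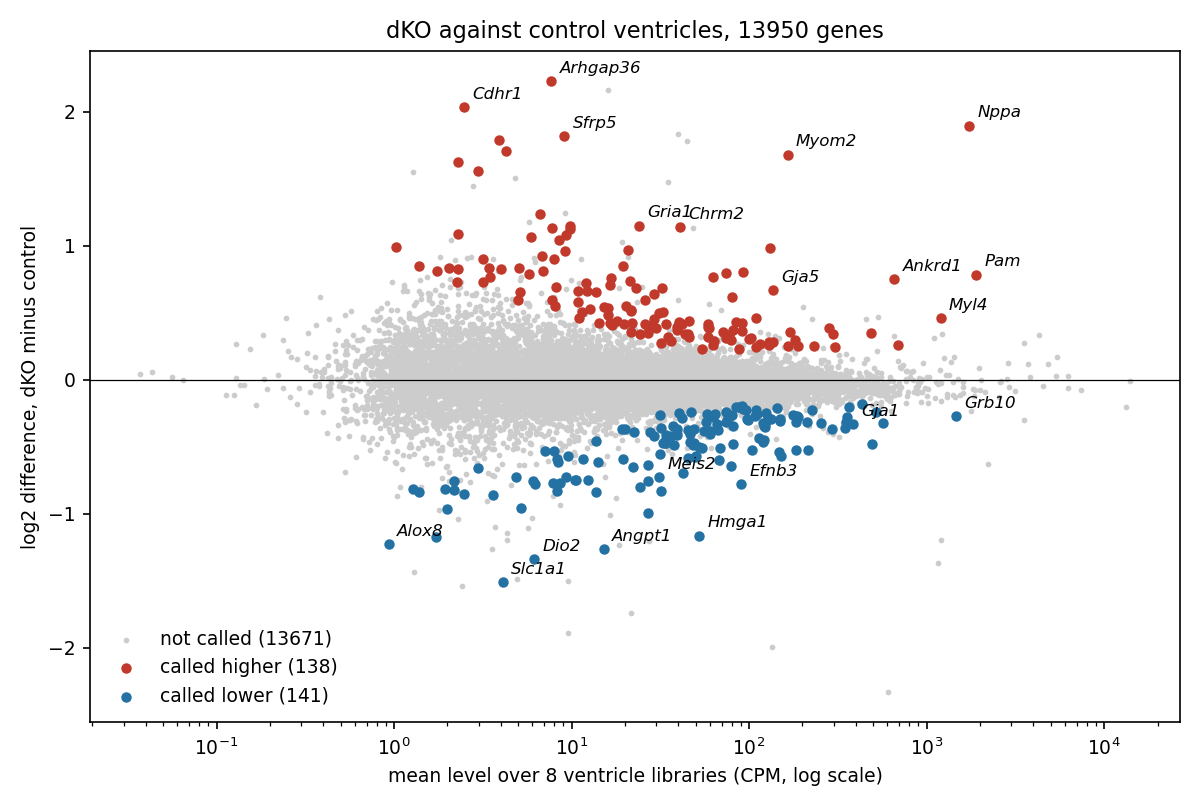
Mean level over the 8 ventricle libraries (CPM, log scale) against the log2 difference between dKO and control for the 13950 genes tested, with the 138 called rises in red, the 141 called falls in blue and the rest in grey. The largest rises (Arhgap36, Cdhr1, Nppa) reach a log2 difference of about 2.23, and the largest fall (Slc1a1) -1.51.

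The largest rise among genes of high level was that of Nppa, which encodes the precursor of atrial natriuretic peptide, a hormone of atrial and fetal ventricular muscle. Nppa (ENSMUSG00000041616) measured 2518, 2593, 2672 and 3108 CPM in dKO libraries and 834, 573, 956 and 615 CPM in control libraries. The lowest dKO value was over 2 times the highest control value. The log2 difference was 1.90 ± 0.14 (SE, limma adjusted p = 3.36e-05). Its exons overlap those of an antisense gene, Gm13054, and without a stated use of strand the reads of both cannot be told apart. Myom2, which encodes a myosin-binding protein of the sarcomeric M-band, measured 262, 273, 224 and 245 CPM against 74.7, 94.6, 58.7 and 86.7 CPM (log2 1.68 ± 0.12, adjusted p = 3.36e-05). Neither gene's groups came near each other.

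The other large rises lay at lower levels. Arhgap36, an inhibitor of protein kinase A, measured 15.8, 11.8, 15.3 and 9.08 CPM against 4.45, 3.66, 1.21 and 0.311 CPM (log2 2.23 ± 0.37, limma adjusted p = 0.00718). Cdhr1, a cadherin-related protein best known from photoreceptors, stood at 42 to 87 reads per dKO library and at 19, 2, 2 and 11 reads in control libraries (log2 2.03). Sfrp5, a secreted Wnt antagonist, was at 13.9 to 15.1 CPM in dKO and 2.12 to 4.79 CPM in control libraries (log2 1.82). These 3 genes separated the groups without overlap, and the spread among controls was wide for Arhgap36, whose call was lost with a robust variance estimate (adjusted p = 0.103). Nsg2, a neuronal vesicle protein, rose by 1.71 and Tmeff2, a transmembrane protein with follistatin modules, by 1.79 on the log2 scale. Fgf12, an intracellular modulator of sodium channels, rose by 1.63 from 3 to 17 reads per control library to 22 to 106 per dKO library. Npy1r, a neuropeptide Y receptor, rose by 1.56, Xirp2, an actin-binding protein of the muscle cell junction, by 1.23, Gria1, a glutamate receptor subunit, by 1.15 and Scn7a, a sodium channel of atypical gating, by 1.15. The size of several of these rises differed with the pseudocount and the tool. On the log2 scale a pseudocount of 5 gave 0.83 for Cdhr1, 0.67 for Fgf12, 0.72 for Npy1r, 0.90 for Tmeff2 and 0.90 for Nsg2, and DESeq2 gave 3.60, 2.92, 2.36, 2.49 and 2.30. Arhgap36 was at 1.3 with a pseudocount of 5, and the other alternatives gave up to 2.53.

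Promoters are shown for rises whose window upstream of the start holds the Meis core TGACAG. RefSeq windows (GRCm38.p6) from 250 bases before to 50 bases after the start were found for 10 of the 12 largest rises and 8 of the 12 largest falls. TGACAG, on either strand, stood fully upstream of the start in 4 of these rises and in none of the falls, while counting the bases after the start gave 6 and 1. Over the 10336 tested genes with a window it stood fully upstream in 16.5%, and over the called rises and falls in 22.8% and 16.2%. The 150 bases right before the start are given 5′ to 3′ on the gene's own strand, with TGACAG or its reverse complement CTGTCA in capitals. Arhgap36 holds it 2 times, with first letters 63 and 15 bases before the start, Nppa 62 bases, Nsg2 53 bases and Scn7a 139 bases before it. A second RefSeq window of Nsg2 holds 2 further matches, the first 43 bases before its own start, and a second one of Arhgap36 holds none. The stretches are chrX:49463795-49463944 (plus strand), chr4:148000572-148000721 (plus), chr11:32000269-32000418 (plus) and chr2:66784911-66785060 (minus).
Arhgap36: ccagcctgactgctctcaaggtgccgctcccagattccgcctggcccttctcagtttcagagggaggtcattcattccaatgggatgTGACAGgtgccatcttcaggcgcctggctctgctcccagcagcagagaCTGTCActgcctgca
Nppa: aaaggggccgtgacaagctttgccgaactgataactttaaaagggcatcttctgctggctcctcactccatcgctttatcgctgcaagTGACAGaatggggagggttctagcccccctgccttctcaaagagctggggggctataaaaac
Nsg2: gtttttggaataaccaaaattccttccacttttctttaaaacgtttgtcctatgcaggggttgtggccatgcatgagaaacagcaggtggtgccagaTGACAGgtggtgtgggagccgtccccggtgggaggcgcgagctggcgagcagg
Scn7a: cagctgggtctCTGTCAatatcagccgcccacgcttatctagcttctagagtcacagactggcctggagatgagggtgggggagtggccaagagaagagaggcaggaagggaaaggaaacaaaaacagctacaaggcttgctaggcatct
Over all called genes with a window, TGACAG or CTGTCA was found in 23.8% of the 126 windows of rises (92 of 138 genes matched) and in 16.8% of the 149 windows of falls (105 of 141 matched). It was found in 16.8% of the windows of all genes tested and in 19.2% of all windows in the table. A match shows the letters only and no binding was measured.

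The largest falls were of genes with low to middle levels. Slc1a1, a neuronal and epithelial glutamate transporter, measured 1.55, 1.299, 1.42 and 1.497 CPM in dKO and 3.66, 5.71, 13.7 and 4.08 CPM in control libraries (log2 -1.51 ± 0.29, limma adjusted p = 0.0175). Control 3 stood far above the other controls. The fall was of -2.24 to -0.80 over the alternatives and lost its call at a pseudocount of 5 and in title group B alone. Slc1a1 shares exon sequence with 4430402I18Rik on the opposite strand. Dio2, the deiodinase that makes active thyroid hormone, measured 3.57, 2.55, 3.39 and 2.77 CPM against 9.82, 9.71, 8.69 and 8.73 CPM (log2 -1.34 ± 0.13, adjusted p = 0.000168). Angpt1, the ligand of the endothelial receptor Tie2, measured 8.58, 8.37, 6.80 and 10.4 CPM against 22.7, 22.7, 21.9 and 19.7 CPM (log2 -1.26 ± 0.11, adjusted p = 0.000139). In both genes the control values lay close together and far above the dKO values. Angpt1 shares exon sequence with an antisense gene, Gm17473.

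Further falls reached down to the floor of detection. Alox8, a lipoxygenase, had 1, 0, 3 and 4 reads in the dKO libraries and 36, 42, 33 and 36 reads in the control libraries, with 3 reads taken as the floor (log2 -1.23, limma adjusted p = 0.00232). Its log2 difference depended on the pseudocount and tool, at -3.67 to -0.38. Togaram2, a protein with microtubule-binding TOG domains, had 4 to 14 reads against 51 to 69 reads (log2 -1.17, range over the alternatives -2.04 to -0.45). Hmga1, a chromatin protein of growing tissue, measured 27.9, 25.9, 27.6 and 49.96 CPM against 72.5, 76.2, 66.6 and 73.5 CPM (log2 -1.16), with dKO 4 apart from the other dKO libraries. Hmga1 has pseudogenes and an overlapping antisense gene, and its call was lost with a robust variance estimate (adjusted p = 0.0528). Dgkk, a diacylglycerol kinase, fell by 0.99, Eprn, a long noncoding RNA, by 0.96 and Megf10, an engulfment receptor, by 0.86 on the log2 scale. Megf10 was not called after thinning all libraries to the shallowest depth. Adra1d, an α1-adrenergic receptor (-0.96), Oprd1, the delta opioid receptor (-0.85), and Ramp3, a receptor activity-modifying protein (-0.84), completed the 12, each at 0.541 to 5.14 CPM. Their calls were each lost by leaving out single libraries. That was any dKO library or control 1 or 2 for Adra1d (log2 -0.997 to -0.75), any library but control 2 for Oprd1 (-0.90 to -0.69), and dKO 1 or 4 or control 1, 3 or 4 for Ramp3 (-0.84 to -0.77), with adjusted p 0.0557 to 0.129.

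Of 19 tested atrial myocyte markers, 6 rose (Nppa, Gja5, Myl4, Fgf12, Kcnj5 and Tbx5) and none fell, against 0.989% of all genes called higher. The other 13 did not pass the test. Of all 19, 10 had a log2 difference above 0 and 9 one below 0, with a median of 0.12. Gja5, the gap junction protein connexin 40 of atria, trabeculae and conduction system, measured 168.5, 154, 174 and 171 CPM in dKO and 89.7, 108, 117 and 105 CPM in control libraries (log2 0.67 ± 0.07, limma adjusted p = 0.000416). Myl4, the atrial essential myosin light chain, measured 1299, 1486, 1364 and 1411 CPM against 1004, 968, 1088 and 986 CPM (log2 0.46 ± 0.06, adjusted p = 0.00124). Both separated the genotypes in all 8 libraries, and Gja5 shares exon sequence with Gpr89 on the opposite strand. Kcnj5, a subunit of the acetylcholine-gated potassium channel, rose by 0.35 and Tbx5, a T-box factor of atria and conduction system, by 0.41. Other defining atrial genes overlapped between the genotypes. The sarcolipin gene Sln averaged 3.89 CPM in dKO against 3.28 CPM in control ventricles, Mybphl 1.55 and 1.78 CPM, Vsnl1 0.481 and 1.29 CPM and Myl7 196 and 203 CPM, with adjusted p of 0.344 to 0.888. The summed level of the 19 genes was 6435 to 9624 CPM in dKO and 3782 to 6542 CPM in control libraries. Nppa and Myh6 carry most of it. Without these 2, left out after their values were seen, the sum of the other 17 ranged from 1961 to 2084 CPM in the dKO group. In the control group it ranged from 1535 to 1716 CPM. Most of this smaller sum was Myl4, itself called, with a mean of 1390 CPM for dKO against 1011 CPM for controls. It therefore does not show a rise of the whole list. Leaving out 1 library at a time left 5 or 6 of the 6 calls, and title group B alone 3.

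Of 18 tested ventricular myocyte markers, 5 fell (Lrrc10, Irx4, Gja1, Cited1 and Mpped2), none rose and 13 did not pass the test, against 1.01% of all genes called lower. The list median was -0.23, with 14 members below 0. The count of falls was 2 with embryo as a block over all 16 libraries, 1 in title group B alone and 9 with DESeq2. Irx4, the homeobox factor that marks ventricular muscle, measured 54.9, 56.7, 59.8 and 55.2 CPM in dKO and 73.8, 75.3, 85.5 and 90.4 CPM in control libraries (log2 -0.51 ± 0.07, limma adjusted p = 0.00156). Gja1, the ventricular gap junction protein connexin 43, measured 326, 343, 363 and 336 CPM against 438, 414, 449 and 424 CPM (log2 -0.33 ± 0.05, adjusted p = 0.00232). Neither gene's groups overlapped, and in Irx4 the controls of title group C stood above those of B. Lrrc10, a leucine-rich repeat protein of heart muscle, fell by 0.40 and Cited1, a transcriptional co-regulator of trabecular muscle, by 0.64. The calls of Irx4 and Lrrc10 were lost in a fit of all 16 libraries with embryo as a block (adjusted p of 0.0553 and 0.0897), and that of Mpped2 (-0.29) without any single library but dKO 4 (-0.30 to -0.26, adjusted p 0.0563 to 0.109). The abundant contractile markers did not pass the test. Myl2, the ventricular regulatory light chain, averaged 3158 CPM in dKO against 3903 CPM in control ventricles (log2 -0.30, adjusted p = 0.119), and Myh7, the β-myosin heavy chain, 12307 and 14168 CPM (log2 -0.20, adjusted p = 0.448). For both of them the groups did not overlap. The summed level of the 18 genes was 22026 to 23789 CPM in dKO and 24609 to 27068 CPM in control libraries. Myh7 and Myl2, neither of them called, carry most of this sum, so it does not show a fall of the whole list.

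**Figure D3:**
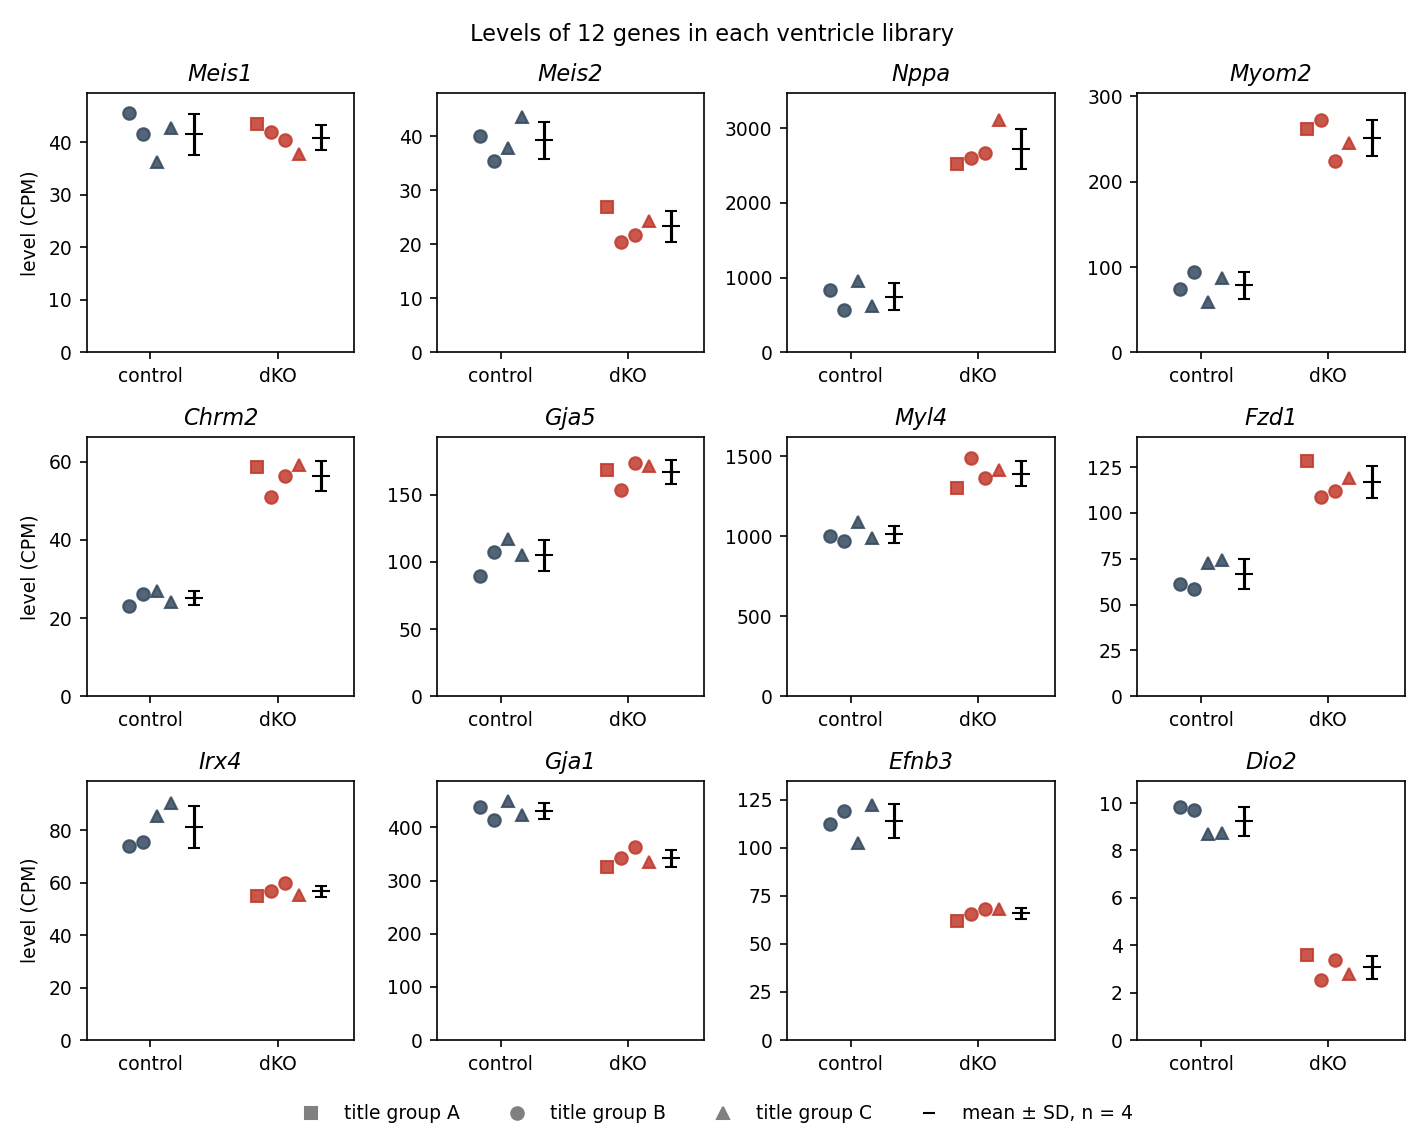
Level in CPM (vertical axes, from 0) of 12 genes in the 4 control (dark blue) and 4 dKO (red) ventricle libraries, with symbols for the title group and bars for mean ± SD. The groups overlap in Meis1 only, and the plotted rises range from Myl4 (log2 0.46) to Nppa (1.90).

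The chamber preference of the called genes can be set out over the whole table, but the control ventricle libraries are shared by both comparisons. A gene high by chance in control ventricles tends to enter the ventricular group and to fall in dKO. One low by chance there tends to enter the atrial group and to rise. The sharing alone pushes the counts below this way, so they are no test of a shift between chambers. In control embryos 577 tested genes were at least 2-fold higher in atria and 316 at least 2-fold higher in ventricles (limma adjusted p under 0.05, embryo as a block). Of all genes tested, 0.989% were called higher and 1.01% lower in dKO ventricles. Among the 577 atrial genes 30 rose in dKO ventricles (5.2%) and 7 fell (1.21%, near the share of all genes). Among the 316 ventricular genes 6 rose (1.9%) and 32 fell (10.13%). The median log2 difference was 0.04 for the atrial and -0.11 for the ventricular genes.

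Of 28 cardiac transcription factors, 3 rose and 1 fell (14.29%, against 2.0% of all genes called), and the list median was -0.04. The rises were those of the T-box genes Tbx20, a factor needed for the growth of the heart chambers (546.8 against 429.6 CPM, log2 0.35), Tbx5 and Tbx2, which represses chamber genes in the atrioventricular canal (24.8, 16.3, 20.9 and 20.7 CPM against 13.6, 11.1, 11.6 and 12.4 CPM, log2 0.70). The 1 fall was that of Irx4. Nkx2-5 (142.7 and 135.4 CPM), Gata4 (219.5 and 213.1 CPM) and Hand2 overlapped between the genotypes. Among TALE homeobox genes Meis2 fell. Meis3 averaged 5.13 and 5.54 CPM (adjusted p = 0.833). Genes of the trabecular layer (2 rose and 1 fell of 15) and of the compact layer (2 rose and 1 fell of 10) had medians of 0.05 and -0.04. In the compact list Ankrd1, a stretch-responsive ankyrin repeat protein, measured 831, 855, 772 and 826 CPM against 542, 411, 459 and 553 CPM (log2 0.75 ± 0.08, adjusted p = 0.00053).

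Single members of the contractile lists changed. The called share was 18.75% of thick filament, 10.53% of thin filament and 12.12% of Z-disc and costamere genes, against 2.0% of all genes. Of 16 thick filament genes, Myom2, Myl4 and the myosin light chain kinase Mylk3 rose and none fell (median -0.04). Of 19 thin filament genes, the nebulin relative Nebl and the actin nucleator Lmod3 fell and none rose (median 0.01). Nebl measured 300, 301, 312 and 301 CPM against 389, 394, 384 and 391 CPM, a narrow spread on both sides (log2 -0.36 ± 0.04, limma adjusted p = 0.000313). Lmod3 measured 31.0, 37.9, 28.8 and 30.5 CPM against 46.9, 51.8, 55.1 and 56.0 CPM (log2 -0.70 ± 0.09). The call of Mylk3 (0.34) was lost in the fit of all 16 libraries with embryo as a block (adjusted p = 0.165). Of 33 genes of the Z-disc and costamere, which anchor the sarcomere and the cell membrane, Ankrd1, Xirp2 and Csrp2 rose and Fhl2 fell (median -0.04). Csrp2 (0.26) lost its call without dKO 1 or 4 or control 1, 2 or 4 (0.22 to 0.27, adjusted p 0.0637 to 0.0832).

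Genes of electrical activity changed in both directions. The called share was 29.41% of sodium channel and exchanger genes and 13.79% of potassium channel genes. It was 6.45% of calcium handling and 5.56% of conduction and pacemaker genes, against 2.0% of all genes. Of 17 sodium channel and exchanger genes, 4 rose, among them Scn7a, Fgf12 and the sodium pump subunit Atp1b2, and 1 fell, the pump subunit Atp1b1. Leaving out 1 library left 2 to 4 of the 4 rises. Scn7a measured 17.0, 10.8, 12.7 and 15.2 CPM against 6.55, 7.02, 4.88 and 4.45 CPM (log2 1.15 ± 0.16, limma adjusted p = 0.00251). Of 29 potassium channel genes, Kcnj5 and Kcna4 rose and Kcnq1 and Kcnh2 fell (median 0.04). Kcnq1, the pore of the slow delayed rectifier, measured 28.0, 28.5, 29.0 and 26.9 CPM against 39.0, 42.5, 34.7 and 41.6 CPM (log2 -0.47 ± 0.07, adjusted p = 0.00337), and its exons overlap the noncoding antisense gene Kcnq1ot1. Of 31 calcium handling genes, the ryanodine receptor Ryr3 and the L-type channel Cacna1c fell and none rose (median -0.02). The Ryr3 call (-0.73) was lost without dKO 1 or 3 or control 1 or 3 (-0.71 to -0.66), and that of Cacna1c (-0.28) without dKO 2, 3 or 4 or control 1, 3 or 4 (-0.29 to -0.23), at adjusted p 0.0513 to 0.101. Of 18 conduction and pacemaker genes, the T-type calcium channel Cacna1h alone was called, by 0.30, and not in the fit of all 16 libraries with embryo as a block (adjusted p = 0.108).

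At the cell junctions the connexins moved apart. The called share was 26.09% of intercalated disc and 26.32% of natriuretic peptide and stress genes, against 2.0% of all genes. Of 23 intercalated disc genes, 4 rose (Gja5, Gja3, Cdh13 and Bves) and 2 fell (Gja1 and Lrrc10), with a median of 0.05. Gja3, connexin 46, averaged 33.98 CPM in dKO against 24.7 CPM in control ventricles (log2 0.45, limma adjusted p = 0.0385). The structural adhesion genes overlapped between genotypes, among them those for desmoplakin, Dsp (796 and 761 CPM), and β-catenin, Ctnnb1 (829.9 and 799 CPM). Of 19 natriuretic peptide and stress genes, Nppa, Ankrd1 and Xirp2 rose and Corin and Rcan1 fell. Corin, the protease that activates the Nppa product, measured 64.0, 63.9, 73.6 and 68.2 CPM against 94.6, 99.8, 89.1 and 92.8 CPM (log2 -0.48 ± 0.06, adjusted p = 0.000798), the direction opposite to that of its substrate. Rcan1, an inhibitor and target of calcineurin, averaged 102.5 against 140.2 CPM (log2 -0.45). Nppb, the brain natriuretic peptide gene, averaged 66.0 and 54.5 CPM with overlap (adjusted p = 0.632). Pam, which amidates secreted peptides, rose from 1582, 1390, 1471 and 1176 CPM in control to 2451, 2307, 2460 and 2406 CPM in dKO libraries (log2 0.78 ± 0.08, adjusted p = 0.000313).

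Of 21 tested genes for vasoactive peptides and adrenergic receptors, 1 rose, 5 fell and 15 did not pass the test. That is 28.57% called, against 2.0% of all genes. The median was -0.07, with 10 members above 0 and 11 below. The rise, of the muscarinic acetylcholine receptor Chrm2, had the smallest adjusted p of all genes tested. Chrm2 measured 58.7, 50.9, 56.2 and 59.1 CPM against 23.0, 26.1, 26.9 and 24.1 CPM (log2 1.14 ± 0.07, limma adjusted p = 1.38e-05), a doubling with no overlap. Its exons overlap the antisense gene 9330158H04Rik, which was also called higher. Ednra, the endothelin A receptor, measured 42.5, 43.8, 43.5 and 41.0 CPM against 55.4, 54.0, 54.8 and 57.5 CPM (log2 -0.37 ± 0.05, adjusted p = 0.00186). The other 4 falls were those of Ednrb, Ramp3, Adra1d and Adra1b. Leaving out 1 library left 1 to 3 of the 5 falls. The call of Ednrb (-0.32) was lost without dKO 3 or 4 or control 1, 2 or 3 (-0.32 to -0.27, adjusted p 0.0552 to 0.0652).

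Among signalling pathways single genes stood out. The called share was 14.71% of Wnt pathway, 8.33% of axon guidance and 5.71% of BMP and TGF-β genes, against 2.0% of all genes. Of 34 Wnt pathway genes, Sfrp5, Fzd1 and Sfrp1 rose and Wif1 and Fzd2 fell, with a median of -0.12. Fzd1, a Wnt receptor, measured 128.5, 109, 112 and 119 CPM against 61.2, 58.5, 72.8 and 74.4 CPM (log2 0.81 ± 0.08, limma adjusted p = 0.000228), with no overlap. Wif1, a secreted Wnt inhibitor (-0.57), lost its call without dKO 2 or 4 or control 1, 3 or 4 (-0.56 to -0.51, adjusted p 0.0503 to 0.0746). Of 36 axon guidance genes, Epha4 rose and Efnb3 and Sema3c fell. Efnb3, a membrane ligand of Eph receptors, measured 62.0, 65.6, 68.0 and 68.2 CPM against 112, 119, 102 and 122 CPM (log2 -0.78 ± 0.06, adjusted p = 3.77e-05). Epha4 (0.55) lost its call without dKO 1, 3 or 4 or control 1, 2 or 3 (0.46 to 0.58), and Sema3c (-0.59) without any library but dKO 4 (-0.65 to -0.49), at adjusted p 0.0528 to 0.138. Of 35 BMP and TGF-β genes, the co-receptor Tgfbr3 (-0.41) and Id2 (-0.42) fell and none rose. The Id2 call was lost without control 3 or 4 (-0.40 and -0.39, adjusted p 0.0512 and 0.0528). Limma called no gene among 17 Notch pathway, 14 retinoic acid pathway and 22 immediate early genes. Of these lists 2, 5 and 4 members had an unadjusted limma p under 0.05, against 1780 of all 13950 genes. DESeq2 called 1, 0 and 2 of the members and edgeR 0, 0 and 1.

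Of 29 glycolysis, lactate and glycogen genes, 4 fell (Gyg, Slc16a1, Slc2a1 and Gys1) and none rose, which is 13.79% called lower against 1.01% of all genes. The list median was -0.09, and 26 of the 29 lay below 0. Gyg, the glycogenin that primes glycogen synthesis, measured 385, 404, 437 and 412.5 CPM against 597, 547, 590 and 553 CPM (log2 -0.48 ± 0.05, limma adjusted p = 0.000331). Slc2a1, the glucose transporter GLUT1, measured 107.5, 114.5, 145.5 and 122 CPM against 197, 161, 200 and 167 CPM (log2 -0.57 ± 0.09, adjusted p = 0.00642), and Slc16a1, the lactate transporter MCT1, fell by 0.46. The enzymes of glycolysis itself were not called in this limma fit. The falls of the list numbered 4 to 6 on leaving out 1 library and 2 to 6 under the other alternatives. Limma called no gene among 35 fatty acid genes (median -0.09), 40 nuclear genes of oxidative phosphorylation (-0.07), 13 mitochondrially encoded genes (0.00298) and 23 genes of the citric acid cycle and creatine shuttle (-0.07). At an unadjusted limma p under 0.05 these lists held 9, 6, 1 and 1 genes, against 1780 of all 13950 genes. In these lists edgeR called none and DESeq2 called 1 fatty acid gene. Of 37 cell cycle genes 1 was called (2.70%, against 2.0% of all genes), Cenpa, a centromere histone (-0.20). Its call was lost without any library but dKO 3 (-0.22 to -0.18, limma adjusted p 0.0817 to 0.153). Of 17 imprinted growth genes, Peg10 rose and Grb10 and Plagl1 fell (17.65% called). Grb10, an inhibitor of insulin and IGF receptors, measured 1295, 1310, 1310 and 1388 CPM against 1606, 1579, 1627 and 1595 CPM (log2 -0.27 ± 0.05, adjusted p = 0.0115). Plagl1 (-0.24) lost its call without dKO 2, 3 or 4 or control 1, 2 or 3 (-0.25 to -0.21, adjusted p 0.0658 to 0.103), and Igfbp5, an IGF-binding protein (-0.32), without any library but control 4 (-0.35 to -0.28, adjusted p 0.0564 to 0.127).

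Of the tested members of the lists for endothelial (17), endocardial (11), lymphatic (7), smooth muscle and pericyte (11), fibroblast (14), epicardial (15), macrophage and leukocyte (16) and neuron and glia (8) cells limma called none. In each of these lists 1 to 5 members had an unadjusted limma p under 0.05, against 1780 of all 13950 genes. None of the members was called by edgeR, and DESeq2 called 0 to 2. The highest of both counts was that of the 11 endocardial markers, with 5 at an unadjusted p under 0.05 and 2 called by DESeq2. The only limma calls in marker lists of non-muscle cells were Gja5 among 11 coronary vessel markers and Tbx20 among 12 valve mesenchyme markers, both also genes of heart muscle. The 11 coronary vessel markers, Gja5 included, summed to 837.8 to 874.9 CPM in dKO and 754.6 to 821.4 CPM in control libraries, without overlap. Of the endocardial markers 9 of 11 lay below 0 (median -0.155) and of the valve markers 10 of 12 (median -0.152). The summed level of the 17 endothelial markers was 1439 to 1543 CPM in dKO and 1489 to 1525 CPM in control libraries, and that of the 14 fibroblast markers 4419 to 5449 CPM and 4741 to 5376 CPM. The 9 tested erythroid genes all had log2 differences above 0 (median 0.34) with none called by limma, edgeR or DESeq2 and 3 at an unadjusted p under 0.05, and their summed level was 3090 to 4918 CPM in dKO and 2322 to 3510 CPM in control libraries. The part of blood, coronary, endocardial or valve cells in any result was not tested. Of the 14 general cardiomyocyte markers limma and edgeR called none, DESeq2 called 2 and 1 had an unadjusted p under 0.05. Their median was -0.04, and their summed level was at least 42441 CPM in every library, as the tissue label requires. The skeletal muscle regulator Myog did not reach the level filter.

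**Figure D4:**
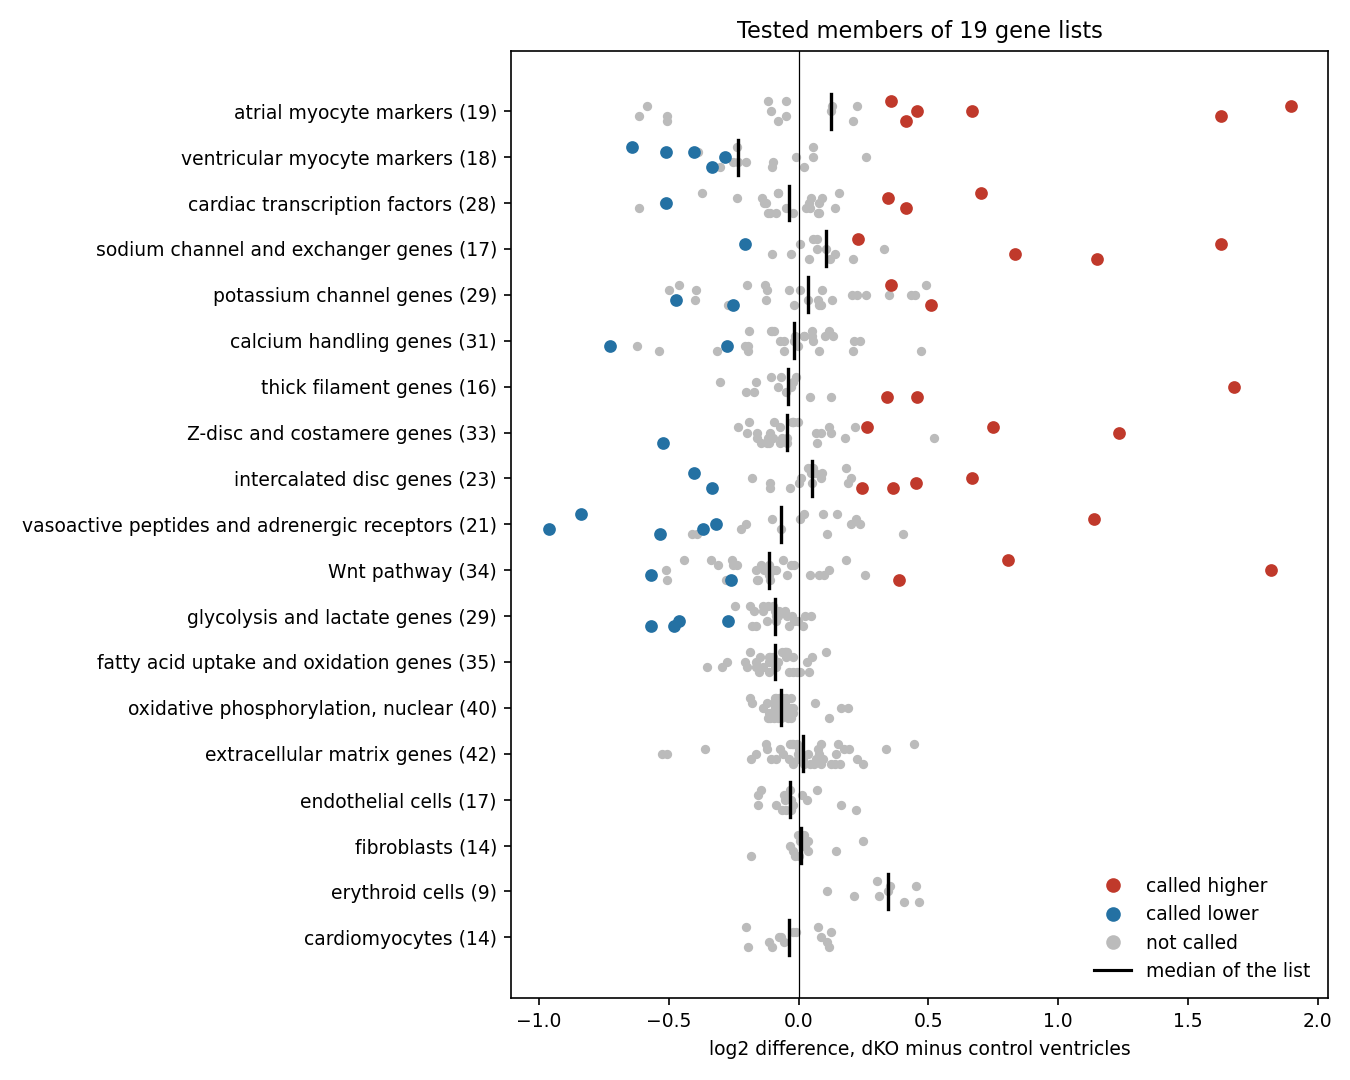
Log2 difference between dKO and control ventricles (horizontal axis) of each tested member of 19 gene lists, with called rises in red, called falls in blue, other members in grey and the list median as a black line. Called atrial markers lie to the right, called ventricular markers to the left, and limma called no member of the fatty acid, oxidative phosphorylation, extracellular matrix, endothelial, fibroblast, erythroid and cardiomyocyte lists. Among the 42 matrix genes 9 had an unadjusted limma p under 0.05, against 1780 of all 13950 genes. Of the 42, edgeR called 1 and DESeq2 4.

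The ventricular changes were compared with those in the atria of the same embryos. In atria 1042 of the 13950 genes were called (7.47%). The test of the difference between chambers, over all 16 libraries with embryo as a block, called 368 genes (2.64%). Of the 138 rises in ventricles, 67 also rose in atria, which is 48.6% of the ventricular and 11.9% of the 563 atrial rises. Of the 141 falls, 61 also fell in atria, which is 43.3% of the ventricular and 12.7% of the 479 atrial falls. Of these 128 shared genes, 91 had the larger difference in atria, and the difference between chambers was called for 37, of which 35 were larger in atria. A further 146 ventricular calls were not called in atria. For 25 of them the difference between chambers was itself called, and for the remaining genes a difference between chambers was not shown.

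Myom2 and Gria1 changed in ventricles with little change in atria. The log2 difference of Myom2 was 1.68 in ventricles and 0.10 in atria (limma adjusted p of the difference between chambers = 8.38e-06), and that of Gria1 was 1.15 and -0.11 (adjusted p = 5.07e-05). Nppa rose in both chambers, by 1.90 and 0.63, and more so in ventricles (difference 1.26, adjusted p = 0.000966). Dio2 fell in ventricles by 1.34 and had a log2 difference of -0.20 in atria (difference -1.14, adjusted p = 0.00155). The targeted genes differed between chambers as well. Meis2 fell in ventricles and had a log2 difference of 0.06 in atria (difference -0.79, adjusted p = 0.000573), while Meis1 fell by 0.62 in atria and had one of -0.02 in ventricles (difference 0.60, adjusted p = 0.00464).

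Other genes changed more in atria. Gsg1l, a synaptic receptor-associated protein, measured 17.1, 16.5, 18.9 and 15.6 CPM in dKO and 27.2, 25.7, 30.3 and 26.1 CPM in the controls, a log2 difference of -0.65 against -2.56 in atria (difference 1.91, limma adjusted p = 3.12e-07). Lrrc10 fell by 0.40 in ventricles and 2.14 in atria, Ryr3 by 0.73 and 2.78, and Gja1 by 0.33 and 1.39. Adam11 fell by 0.37 in ventricles and 1.84 in atria, and its ventricular call was lost without any library but dKO 3 (-0.39 to -0.34, adjusted p 0.0511 to 0.0995). Csrp2, a muscle LIM protein, rose by 0.26 in ventricles and 1.51 in atria (difference -1.25, adjusted p = 3.12e-07). Ventricular and atrial calls had opposite directions in 5 genes. These were Adra1d (-0.96 and 1.16), Mpped2 (-0.29 and 0.84), Atp1b1 (-0.21 and 0.29), Ephb3 (-0.41 and 0.39) and Nlrp10 (0.50 and -0.46), the last 3 named because of their small number. The 4 largest rises in ventricles, Arhgap36 (2.76), Cdhr1 (2.77), Nppa (0.63) and Sfrp5 (2.82), also rose in atria by the values given. The difference between chambers was called for Nppa and Sfrp5 and not for Arhgap36 and Cdhr1 (limma adjusted p of 0.773 and 0.323).

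**Figure D5:**
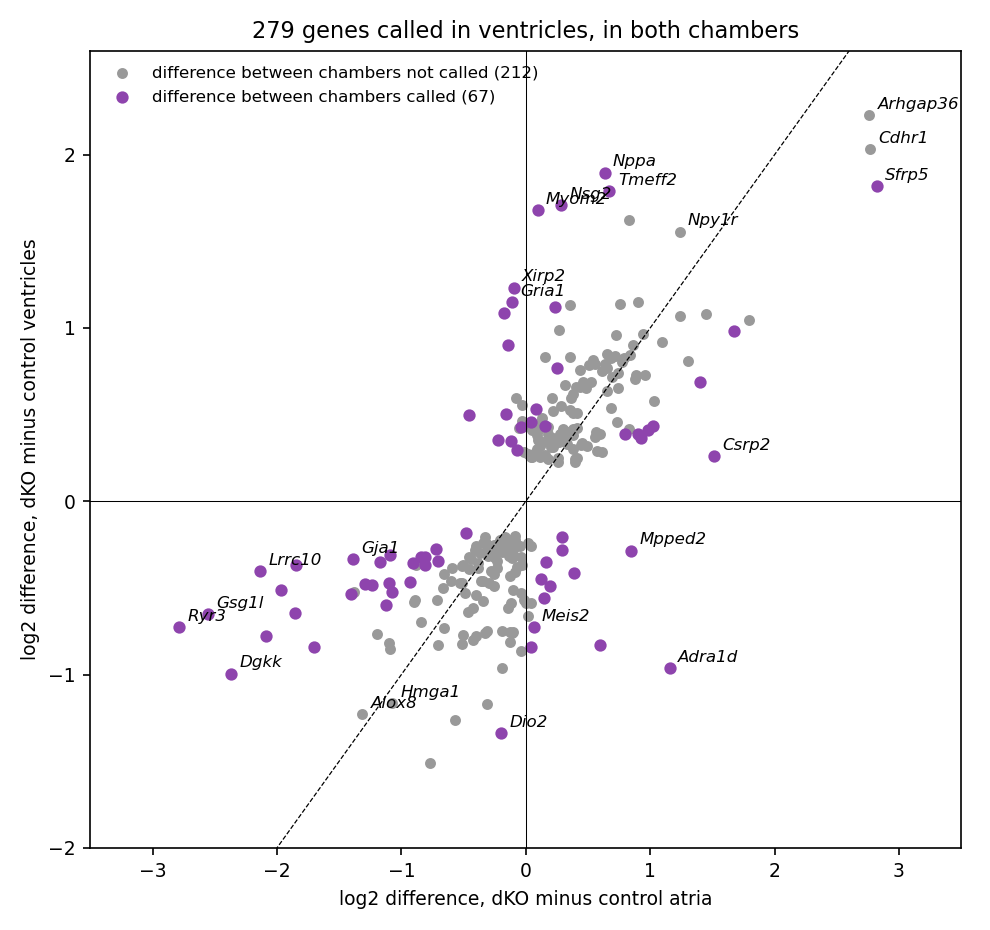
Log2 difference in atria (horizontal) against that in ventricles (vertical) for the 279 genes called in ventricles, with the 67 genes whose difference between chambers was called in purple and equal differences on the dashed line. Myom2, Gria1 and Nppa lie above the line, and Ryr3, Gsg1l and Lrrc10 lie far to the left with small ventricular differences.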

How the data were processed

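RNA from 16 samples (atria and ventricles of 8 embryos) was read as polyadenylated libraries of single reads on a HiSeq2500, per the labels' protocols. The deposited table gives CPM (reads scaled to library size) per gene, and the submitters' processing notes name cutadapt, RSEM 1.3.1 and GRCm38 without stating their settings or the use of strand. The low values are whole steps of 1 read plus a constant offset, so reads were recovered for 100% of values within 0.001 of a whole number, and these gave the depth per library. The authors' CPM values were tested as log2(CPM + 1) with limma 3.58.1 (mean-variance trend, two-sided, Benjamini-Hochberg adjustment) in the 8 ventricle libraries, over genes whose CPM averaged 1 or more across the 16 libraries. Calls needed an adjusted p under 0.05 and no minimum fold. The difference between chambers was fitted over 16 libraries with embryo as a block (consensus correlation 0.108). Meis1, Meis2 and depth were compared by exact permutation. The fits were tested on simulated data.

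Of 16118 genes in the table, 16096 matched the GENCODE M21 annotation. Exons of 31 called genes overlap another gene, and strand use is not stated. With 3 reads as the floor, depth limits detection to 0.110 CPM in the deepest and 0.312 CPM in the shallowest library. Genes were named by rule: Meis1 and Meis2, the 12 largest called rises and falls without overlap and with a regular symbol, the 6 most abundant called genes each way, 5 genes each way with the largest difference between chambers, and up to 3 genes per list. Other members are named to complete a count of a list or as its defining markers, chosen after their values were seen. The libraries, members and lists were chosen with earlier results of these data known. The replicates are separate embryos from 4 litters, per the labels' protocols, and which embryos share a litter is not given. Alternatives were edgeR 4.0.16 and DESeq2 1.42.0 on the recovered reads, other pseudocounts, filters and scalings, thinning to 7.88 M reads, title group, and leaving out each library. Some results on single genes are not reported here.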

Additional observations from a re-analysis of the deposited data

Results flagged for a closer look

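In 14 of 226 sets of 4 ventricle libraries examined (6.19%), 1 library lay far from the other 3 of its genotype. The cutoff flags about 1 in 20 sets of independent, normally spread values. Many of the genes were named for being called, and all sets share the same 8 libraries, so that rate is no chance level here. dKO 4 was highest for Hmga1 (49.96 CPM), Grb10 (1388 CPM) and Ryr3 (4.36 CPM). dKO 2, the shallowest library, was highest for Ccng1 (208.2 CPM) and lowest for Cacna1h (98.7 CPM), Trp53 (52.1 CPM), Col1a1 (1007 CPM) and Mrc1 (11.8 CPM). dKO 1 was highest for Gria1 (39.2 CPM) and Abcc9 (155 CPM), and dKO 3 for Nebl (312 CPM) and Cgnl1 (114 CPM). Among the controls, control 4 was highest for Cenpa (95.5 CPM) and control 1 for Tcf21 (32.7 CPM).

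The limma test of the difference between chambers (ventricular minus atrial log2 difference) called 34 of the named genes. It was positive, a higher dKO value relative to control in ventricles than in atria, for Ryr3 (2.06), Gsg1l (1.91), Lrrc10 (1.73), Myom2 (1.58), Adam11 (1.475), Nsg2 (1.42), Dgkk (1.38), Xirp2 (1.33), Efnb3 (1.31), Nppa (1.26), Gria1 (1.26), Cited1 (1.21), Tmeff2 (1.12) and Gja1 (1.06). Smaller positive values were those of Abcc9 (0.84), Corin (0.82), Gyg (0.76), Kcnq1 (0.63), Meis1 (0.60), Kcnj5 (0.58), Tbx20 (0.46), Cacna1c (0.45), Ednra (0.44), Myl4 (0.42) and Clic4 (0.29). It was negative for Adra1d (-2.12), Ankrd63 (-1.42), Csrp2 (-1.25), Dio2 (-1.14), Mpped2 (-1.13), Sfrp5 (-1.001), Ramp3 (-0.88), Meis2 (-0.79) and Acta2 (-0.74). Leaving out 1 embryo at a time lost the call for 8 of the 34. For Xirp2 that was control embryo 4 (1.19, adjusted p = 0.0636), for Tmeff2 control 3 or 4 (1.03 and 1.04), and for Clic4 control 4 or dKO 3 (0.29 and 0.27). For Kcnq1 it was control 2, 3 or 4 or dKO 3 (0.58 to 0.65), for Cacna1c control 1, 2 or 4 or dKO 3 (0.42 to 0.45), and for Myl4 control 1, 2 or 4 or dKO 2 or 3 (0.34 to 0.45). For Sfrp5 it was any embryo but control 1 and dKO 1 (-1.01 to -0.71) and for Ramp3 any but dKO 2 (-0.96 to -0.76).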

How the results depend on the processing

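All 279 called genes kept their direction under the alternatives run, though only 251 of them were tested with a minimum mean of 5 CPM. The alternatives reuse the same ventricle libraries. For the 137 rises and 140 falls without overlap the direction is fixed in any subset of them, so keeping it adds no support. DESeq2 called 469 genes (249 higher, 220 lower) and title group B alone 79 (45 and 34), with 278 and 61 of the 279 kept. Other alternatives gave 215 to 346 calls. Leaving out 1 library gave 187 to 261 calls, 90 to 137 higher and 88 to 124 lower, and the genes differing between chambers numbered 238 (without dKO embryo 3), 241 (without control embryo 4) and up to 470, against 368. The log2 difference of Meis1 was -0.0817 to 0.0270 on leaving out 1 library (0.0175 without dKO 4, 0.0270 without control 1) and 0.0141 after thinning. That of Meis2 was -0.79 to -0.67, and within title group B it was -0.80 (exact permutation p = 0.333, the smallest 2 against 2 can give). The causes were not tested. Of 72 called genes named by the rule, 23 kept their call in every alternative and 52 on leaving out any 1 library. Thinning all libraries to the shallowest depth kept 208 of 279 calls, and the title group as a covariate 201. No paired analysis was possible because the labels do not say which control and dKO embryo share a litter, and the replicate numbers are in accession order.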
